A study of Mus musculus with 8 samples.

Results

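Msx1, Msx2, Dlx3, Foxn1, Lhx2, Gata3, Vdr, Foxe1, Ovol1 and Mycl are transcription factors that regulate the fate of the hair matrix, the hair shaft and the root sheath. These 10 genes, taken by their symbols from the 18540 genes of the deposited count table, were compared between 4 control and 4 Z1C2Z wound skin samples of mice. Z1C2Z is a composite of zinc peroxide and cerium dioxide nanoparticles in a zinc-imidazolate metal organic framework. By the study's methods it was injected around full-thickness back wounds, the control wounds received PBS, and wound skin was taken after 15 days of treatment. The study wounded C57BL mice at an age of 6 weeks and diabetic db/db mice, which lack a working leptin receptor, at 10 weeks, with 2 wounds on each mouse. The strain, and so the age, of the sequenced mice and the wounds that shared a mouse are not given in the sources used here, so the p-values measure the spread between these samples, which need not come from separate mice. The titles name the treated samples only as shiyan, and the sequencing methods name the composite only as ZCZ, which the study made in the versions Z1C1Z and Z1C2Z. That the treated samples are Z1C2Z rests on a sample heatmap of the study, whose Z1C2Z sample numbers match the titles, and is not stated in the labels. They are named here Z1C2Z followed by the number in the title, which is 1, 2, 4 or 5. The control samples have the numbers 1, 2, 3 and 5.

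A hair follicle grows from a bulb in which matrix keratinocytes divide around a dermal papilla and then differentiate into the layers of the shaft and of the inner root sheath. Wnt signals acting through Lef1 and bone morphogenetic protein signals set this differentiation, and the homeodomain factors Msx1, Msx2 and Dlx3, together with the forkhead factor Foxn1, are expressed in the matrix and the forming shaft, where they act ahead of the hair keratin genes. Loss of Foxn1 gives the nude mouse, whose hair shafts are defective. Lhx2 is a LIM homeodomain factor of the follicle bud and the stem cells, Gata3 directs the inner root sheath, the vitamin D receptor Vdr is required for the hair cycle after the first coat, Foxe1 is a forkhead factor of the lower root sheath, the zinc finger factor Ovol1 regulates the exit of keratinocytes from division, and Mycl is a member of the Myc family of basic helix-loop-helix factors.

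Among the 10 genes, 7 had a promoter sequence of 300 bases around the start site in the RefSeq table (GRCm38.p6), with Lhx2 represented by 2 promoters. The promoters of Msx2, Foxn1 and Mycl are shown because these genes had the second largest and largest fold change and the smallest p-value of the 10. Each is written 5′ to 3′ on the strand of the gene. Capitals mark the letters GACGC, the core bound by Foxn1, on either strand, so that a match on the opposite strand reads GCGTC. They also mark TATAAA, the letters of a TATA box.
Msx2 (chr13:53472731-53473030, minus strand): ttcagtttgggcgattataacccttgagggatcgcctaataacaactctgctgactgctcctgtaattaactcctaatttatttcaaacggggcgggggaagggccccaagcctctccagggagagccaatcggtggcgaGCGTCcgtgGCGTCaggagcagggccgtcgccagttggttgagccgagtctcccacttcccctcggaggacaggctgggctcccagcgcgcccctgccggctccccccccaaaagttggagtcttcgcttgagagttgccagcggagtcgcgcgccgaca
Foxn1 (chr11:78386559-78386858, minus strand): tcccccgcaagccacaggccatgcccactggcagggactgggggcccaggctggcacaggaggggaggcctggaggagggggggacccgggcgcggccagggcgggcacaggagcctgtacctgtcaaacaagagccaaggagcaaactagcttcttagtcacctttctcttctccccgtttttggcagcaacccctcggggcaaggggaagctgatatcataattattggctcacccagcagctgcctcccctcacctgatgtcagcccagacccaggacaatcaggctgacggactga
Mycl (chr4:122995681-122995980, plus strand): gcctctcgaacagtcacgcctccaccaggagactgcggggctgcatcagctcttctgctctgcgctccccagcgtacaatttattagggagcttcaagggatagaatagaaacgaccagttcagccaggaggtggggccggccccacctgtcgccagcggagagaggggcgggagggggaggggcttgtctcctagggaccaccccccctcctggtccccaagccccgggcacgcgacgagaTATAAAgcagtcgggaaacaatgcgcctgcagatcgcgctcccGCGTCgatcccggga
GACGC was present in 5 of the 8 promoters, against 27.2% of all 32851 promoters of this length. In Msx2 it occurred on the opposite strand at -110 to -106 and at -101 to -97 from the start site, and in Mycl at 36 to 40, whereas the Foxn1 promoter held none. TATAAA was found in the Mycl promoter alone, at -8 to -3, and in 13.6% of all promoters. Whether it serves as a TATA box at this position was not tested. No match was found in the 8 promoters for the homeodomain letters TAATTG (8.00% of all promoters), the Myc E-box CACGTG (7.15%), the Lef/Tcf letters CTTTGAA or CTTTGTT (10.6%), the Gata letters AGATAA (11.2%) or the nuclear receptor half-sites AGGTCA or GGTTCA (24.8%), each searched on both strands. The 8 promoters held between 61% and 74.7% G and C and between 8 and 34 CpG dinucleotides, where the median promoter held 52.7% and 7. The letters GACGC hold a CpG, and their share was not compared with that in promoters of like composition. These matches describe letters only, and binding was not measured. Other forms of these sites were not searched, so a lack of such sites does not follow from a lack of matches.

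The control samples held 28856790 to 38249438 counts on genes and the Z1C2Z samples 33966536 to 38974888. CPM, the counts of a gene relative to the library total, were scaled by the TMM method. The skin label was checked on 16 general keratinocyte genes, led by Krt5 and Krt14, whose summed level was 9279 to 12251 CPM in the control and 11384 to 13569 CPM in the Z1C2Z samples. Z1C2Z-2 and Z1C2Z-4 had the highest mean log2 CPM over 13 hair shaft keratin genes, 7.64 and 7.56. The values were 6.06 in Z1C2Z-1, 4.33 in Z1C2Z-5 and 0.73 to 4.26 in the control samples. In these bulk samples, more cells of a type and more RNA per cell cannot be told apart.

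Of the 10 hair follicle transcription factors, 8 were higher in the Z1C2Z than in the control samples (edgeR quasi-likelihood test with Benjamini-Hochberg adjustment over 15147 genes, adjusted p under 0.05), where 4.28% of all genes tested were higher. These were Msx1, Msx2, Dlx3, Foxn1, Gata3, Vdr, Foxe1 and Mycl. With edgeR 0 were lower, with 0 also at an unadjusted p under 0.05 and 0 with DESeq2, where 3.85% of all genes tested were lower. Lhx2, at an unadjusted edgeR p of 0.0468, ranked at position 4137 of 15147 genes by p, so such a p was common over all genes. This is the background of the counts at an unadjusted p in the lists below. All 10 passed the filter on low counts and had a log2 fold change over 0, as did 51.1% of all genes tested. Their median log2 fold change was 1.25, against 0.0086 over all genes tested. The members were chosen with earlier results of these data known, so their counts and median beside those of all genes are a description only. A log2 fold change over 1 was added as a second requirement, which 6 of the 10 met and 2.15% of all genes tested. In 8 of the 10 every Z1C2Z sample lay above every control sample, as in 8.45% of all genes tested, and the reverse, seen in 8.82% of all genes tested, occurred in 0 of the 10. In the sentences below the values stand in the order of the sample numbers, 1, 2, 3 and 5 for control and 1, 2, 4 and 5 for Z1C2Z.

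**Figure D1:**
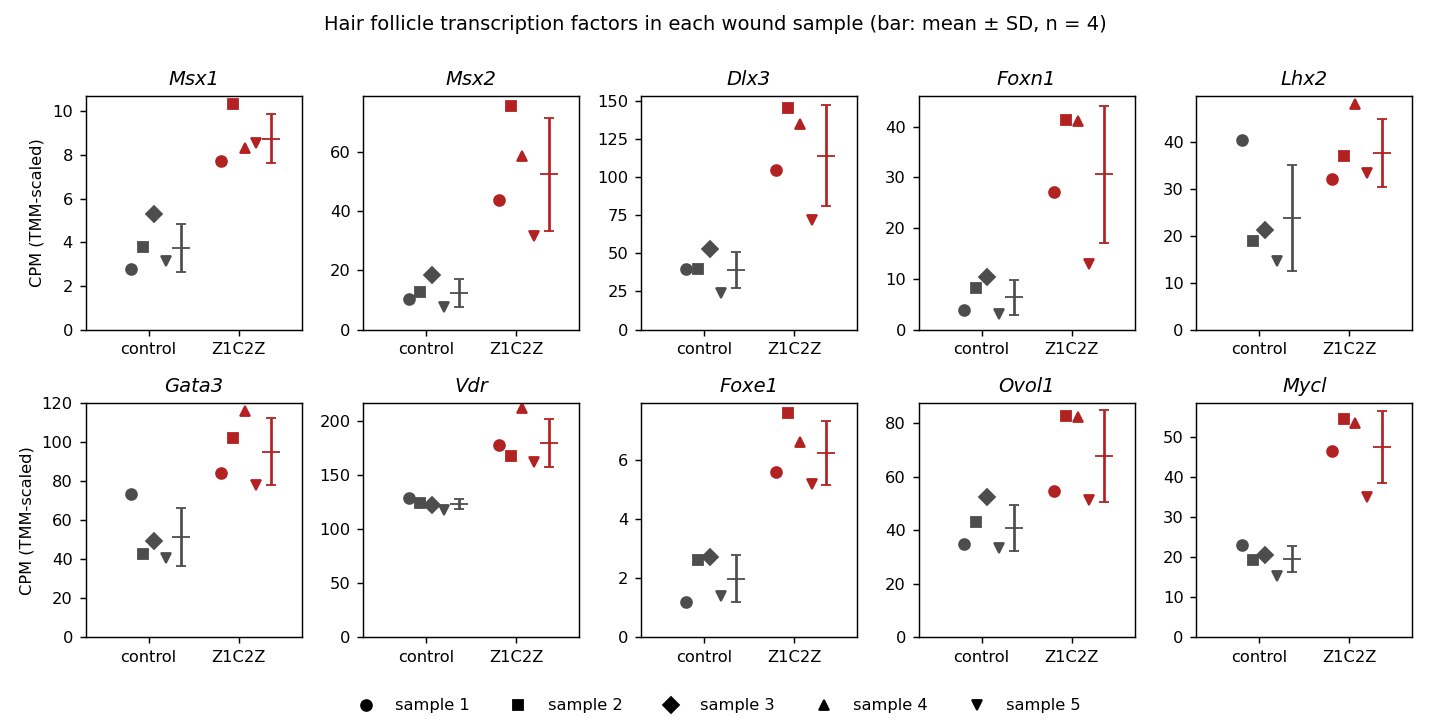
Level of the 10 hair follicle transcription factors in each sample. Each panel plots TMM-scaled CPM on a linear axis from 0, a point stands for a sample with its number given by the symbol, and the bar gives the mean ± SD of 4 samples. The groups overlap for Lhx2 and Ovol1 and not for the other genes.

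The homeodomain factors of the matrix, Msx1, Msx2 and Dlx3, rose. Msx2 (Entrez 17702), a homeodomain factor that acts ahead of Foxn1 in the hair matrix, had 10.4, 12.7, 18.5 and 7.58 CPM in the control samples and 43.7, 75.7, 58.8 and 31.7 CPM in the Z1C2Z samples. The lowest Z1C2Z sample, Z1C2Z-5, stood 1.71-fold above the highest control sample, control-3. Its mean rose from 12.3 ± 4.64 to 52.5 ± 19.0 CPM (SD, n = 4), by 4.26-fold or 2.09 on the log2 scale (SE 0.33, edgeR adjusted p = 0.0299). Msx1 (Entrez 17701), its closest relative, was at a lower count in each sample, with 78 to 192 counts in the control and 274 to 399 in the Z1C2Z samples. It had 2.77, 3.77, 5.29 and 3.15 CPM in the control samples and 7.73, 10.3, 8.34 and 8.57 CPM in the Z1C2Z samples, again with no overlap. Msx1 rose by 1.22 on the log2 scale (SE 0.21, edgeR adjusted p = 0.0299), with means of 3.75 ± 1.11 and 8.74 ± 1.12 CPM (SD, n = 4). An RNA antisense to Msx1 is known, and as the strand setting of the counting is not given, reads of the 2 strands cannot be told apart in these counts.

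Dlx3 (Entrez 13393), a distal-less homeodomain factor required for the hair shaft, had 39.9, 39.4, 52.7 and 23.9 CPM in the control samples and 104, 145, 134 and 71.7 CPM in the Z1C2Z samples. Control-5 was the lowest and Z1C2Z-2 the highest of the 8 samples. The mean rose from 39.0 ± 11.8 to 114 ± 33.1 CPM (SD, n = 4), by 1.55 on the log2 scale (SE 0.27, edgeR adjusted p = 0.0299). Lhx2 (Entrez 16870) had 40.3, 18.8, 21.3 and 14.7 CPM in the control samples and 32.0, 37.0, 48.1 and 33.5 CPM in the Z1C2Z samples. Control-1 lay within the range of the Z1C2Z samples and above Z1C2Z-1, Z1C2Z-2 and Z1C2Z-5, while the other control samples lay below all Z1C2Z samples. The log2 fold change of Lhx2 was 0.66 (SE 0.29, edgeR adjusted p = 0.171, exact two-sided permutation p = 0.114) and did not pass the test. Without control-1 it was 1.04 with an edgeR adjusted p of 0.0296.

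Both forkhead factors rose. Foxn1 (Entrez 15218) had 3.84, 8.24, 10.3 and 2.99 CPM in the control samples and 27.1, 41.2, 41.0 and 12.9 CPM in the Z1C2Z samples. It had the widest spread of the 10 among the control samples, 3.45-fold from the lowest to the highest, and Z1C2Z-5 was 1.26-fold above control-3. The mean of Foxn1 rose from 6.34 ± 3.50 to 30.6 ± 13.5 CPM (SD, n = 4), which was the largest log2 fold change of the 10, 2.26 (SE 0.47, edgeR adjusted p = 0.0315). Foxe1 (Entrez 110805) had the fewest reads, 34 to 99 counts in the control and 187 to 294 in the Z1C2Z samples. Its values were 1.21, 2.61, 2.73 and 1.41 CPM in the control samples and 5.61, 7.62, 6.63 and 5.18 CPM in the Z1C2Z samples. The lowest Z1C2Z sample stood 1.90-fold above the highest control sample, the widest such gap of the 10 genes. Foxe1 rose by 1.65 on the log2 scale (SE 0.29, edgeR adjusted p = 0.0299).

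Gata3 (Entrez 14462), the zinc finger factor of the inner root sheath, had 73.2, 42.8, 49.3 and 40.6 CPM in the control samples and 84.2, 102, 116 and 78.2 CPM in the Z1C2Z samples. Control-1 was the highest control sample and Z1C2Z-5 lay 1.07-fold above it, so the groups were separated by a narrow gap. Gata3 rose by 0.89 on the log2 scale (SE 0.20, edgeR adjusted p = 0.0374), with means of 51.5 ± 14.9 and 95.2 ± 17.3 CPM (SD, n = 4). Gata3 is also a factor of T cells. The list of T cell and innate lymphoid genes starts with Cd3e and Cd3d. Its genes summed to 59.7 to 92.0 CPM in the control and 56.1 to 82.7 CPM in the Z1C2Z samples, with Il7r the largest part. EdgeR called 0 of 9 and DESeq2 called 1. At an unadjusted edgeR p under 0.05, Cd8a was higher (log2 fold change 1.39) and Il7r lower (-0.34). Ovol1 (Entrez 18426) had 35.0, 43.0, 52.2 and 33.2 CPM in the control samples and 54.6, 82.7, 82.3 and 51.2 CPM in the Z1C2Z samples. Control-3 lay above Z1C2Z-5, by which the groups overlapped. The log2 fold change of Ovol1 was 0.73 (SE 0.20, edgeR adjusted p = 0.0588, exact two-sided permutation p = 0.0571) and did not pass. It passed without Z1C2Z-5 (0.84, edgeR adjusted p = 0.0352), without control-3 (0.87, edgeR adjusted p = 0.0444) and with DESeq2 (0.72, adjusted p = 0.00832).

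Vdr (Entrez 22337), the nuclear receptor for vitamin D, was the most even of the 10 among the control samples. It had 129, 124, 122 and 118 CPM in the control samples and 178, 168, 212 and 163 CPM in the Z1C2Z samples. The control samples differed by 1.09-fold at most and the Z1C2Z samples by 1.30-fold. Its mean rose from 123 ± 4.43 to 180 ± 22.1 CPM (SD, n = 4), the smallest log2 fold change of the 10, 0.55 (SE 0.10, edgeR adjusted p = 0.0299). Mycl (Entrez 16918) had 23.0, 19.2, 20.5 and 15.3 CPM in the control samples and 46.4, 54.5, 53.4 and 35.0 CPM in the Z1C2Z samples. The mean of Mycl rose from 19.5 ± 3.20 to 47.3 ± 8.97 CPM (SD, n = 4), by 1.28 on the log2 scale (SE 0.17, edgeR adjusted p = 0.0280), with Z1C2Z-5 1.52-fold above control-1. Mycl ranked at position 15 of all 15147 genes by p and at position 1 of 1063 genes to which the deposited table gives a transcription factor family. For each of the 8 genes without overlap the exact two-sided permutation test gave p = 0.0286, the smallest that 70 arrangements can give, in 10 such tests.

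The samples of a group took similar places across the 10 genes. The 2 highest treated samples were Z1C2Z-2 and Z1C2Z-4 in 8 of the 10, the exceptions being Msx1 and Vdr. Z1C2Z-5 was the lowest treated sample in 8, and Z1C2Z-1 was the lowest for Msx1 and Lhx2. In the control group control-3 was highest for Msx1, Msx2, Dlx3, Foxn1, Foxe1 and Ovol1, and control-1 for Lhx2, Gata3, Vdr and Mycl. Control-5 was the lowest control sample in 8 of the 10. The mean log2 CPM over the 13 shaft keratin genes was likewise highest in Z1C2Z-2 and Z1C2Z-4 among the treated samples and in control-3 among the control samples, but lowest in control-1. The part of this order in the differences between the groups was not tested.

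**Figure D2:**
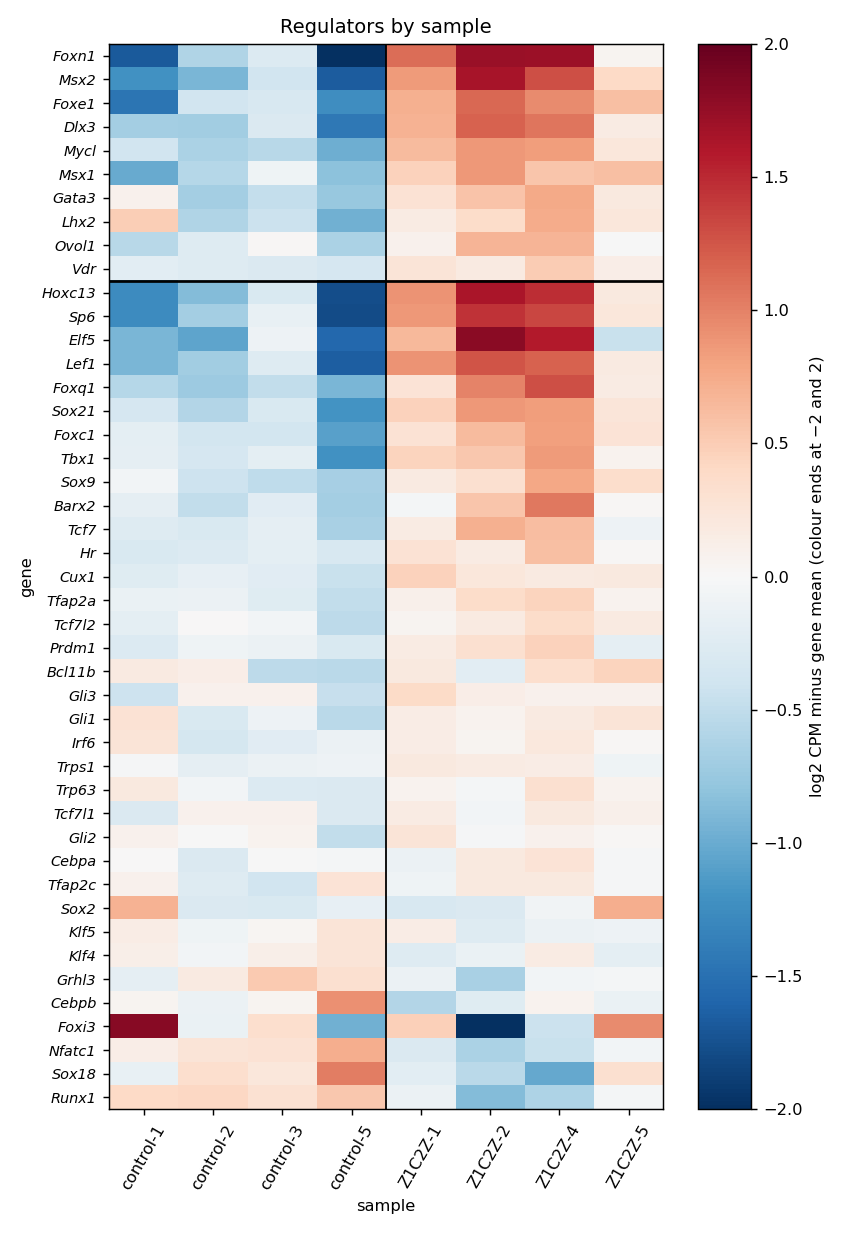
Log2 CPM of the 10 hair follicle transcription factors (above the line) and of 35 other regulators of hair follicle and keratinocyte fate (below it) in the 8 samples, each minus the mean of its gene over all samples. Red is above and blue below the mean, and the colour ends at -2 and 2. For both Foxn1 and Hoxc13, Z1C2Z-2 is the highest and control-5 the lowest of the 8 samples.

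Levels of different genes were compared as CPM per kilobase of exon. In the control samples Vdr was at 21.8 ± 0.784 (SD, n = 4), above Dlx3 at 14.9 ± 4.53 without overlap. Gata3 at 12.9 ± 3.75 and Ovol1 at 11.7 ± 2.50 overlapped with Dlx3 and with each other in this order of levels. Ovol1 and Lhx2 (5.41 ± 2.59) did not overlap, and below them Mycl (4.83 ± 0.792), Msx2 (3.76 ± 1.41), Foxn1 (1.97 ± 1.09), Msx1 (1.21 ± 0.358) and Foxe1 (0.709 ± 0.282) each overlapped with the next. In the Z1C2Z samples Dlx3 had the highest mean level of the 10, 43.7 ± 12.7 CPM per kilobase, and overlapped with Vdr at 31.9 ± 3.92. Gata3 (23.9 ± 4.34), Ovol1 (19.4 ± 4.91), Msx2 (16.0 ± 5.81), Mycl (11.7 ± 2.22), Foxn1 (9.51 ± 4.19) and Lhx2 (8.57 ± 1.66) followed, each overlapping with the next. Lhx2 lay above Msx1 (2.82 ± 0.362) without overlap, and Foxe1 (2.23 ± 0.388) overlapped with Msx1.

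The calls lay close to the threshold and depended on single samples, as did the calls over all genes. No member was called by edgeR without control-5 (adjusted p of the 8 genes 0.0650 to 0.0995), without Z1C2Z-1 (0.0661 to 0.0684), without Z1C2Z-2 (0.0888 to 0.106) or without Z1C2Z-4 (0.0876 to 0.107). In these fits 0 of all genes were called. An unadjusted p under 0.05 was reached by 9, 10, 9 and 9 of the 10, and by 3223, 4208, 3137 and 3100 of all genes. Without control-2 Mycl alone of the 10 was called (adjusted p = 0.0424), where 123 of all genes were called. Without control-3 8 of the 10 were called, with Ovol1 in the place of Gata3 (0.0597), and 1005 of all genes. Without control-1 or without Z1C2Z-5 9 of the 10 were called, and 1524 and 1745 of all genes. Leaving out both Z1C2Z-2 and Z1C2Z-4 gave 0 calls (adjusted p 0.280 to 0.337), with 8 at an unadjusted p under 0.05, and log2 fold changes of 1.65 for Foxn1, 1.61 for Msx2, 1.43 for Foxe1 and 0.47 for Vdr. With the mean log2 CPM of skeletal muscle genes as a covariate 0 were called (adjusted p of the 8 genes 0.101 to 0.200), with 9 at an unadjusted p under 0.05. Of all genes, 0 were called without Z1C2Z-2 and Z1C2Z-4 and 0 with this covariate, with 1980 and 3141 at an unadjusted p under 0.05. The 14 muscle genes summed to 4248 to 7931 CPM in the control and 3512 to 4138 CPM in the Z1C2Z samples. In all of these fits, which share most of their samples, the log2 fold changes of the 10 genes were over 0.

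Of the 16 general keratinocyte genes 6 were higher in the Z1C2Z samples, and their median log2 fold change was 0.37. Scaling the counts by these genes in place of TMM moved the median log2 fold change of all genes to -0.37, and 392 genes were then higher and 5768 lower, against 648 and 583 with TMM. Relative to the keratinocyte genes, 6 of the 10 hair follicle transcription factors were higher, Foxn1 (1.85), Msx2 (1.69), Foxe1 (1.26), Dlx3 (1.15), Mycl (0.89) and Msx1 (0.84), with edgeR adjusted p between 0.00867 and 0.0238. Gata3 (0.50, edgeR adjusted p = 0.0517), Vdr (0.16, edgeR adjusted p = 0.198), Ovol1 (0.33) and Lhx2 (0.28) were not called under this scaling. In 5 of the 10 the groups did not overlap under this scaling. The share of all genes without overlap under it is not given here, so this count has no background.

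**Figure D3:**
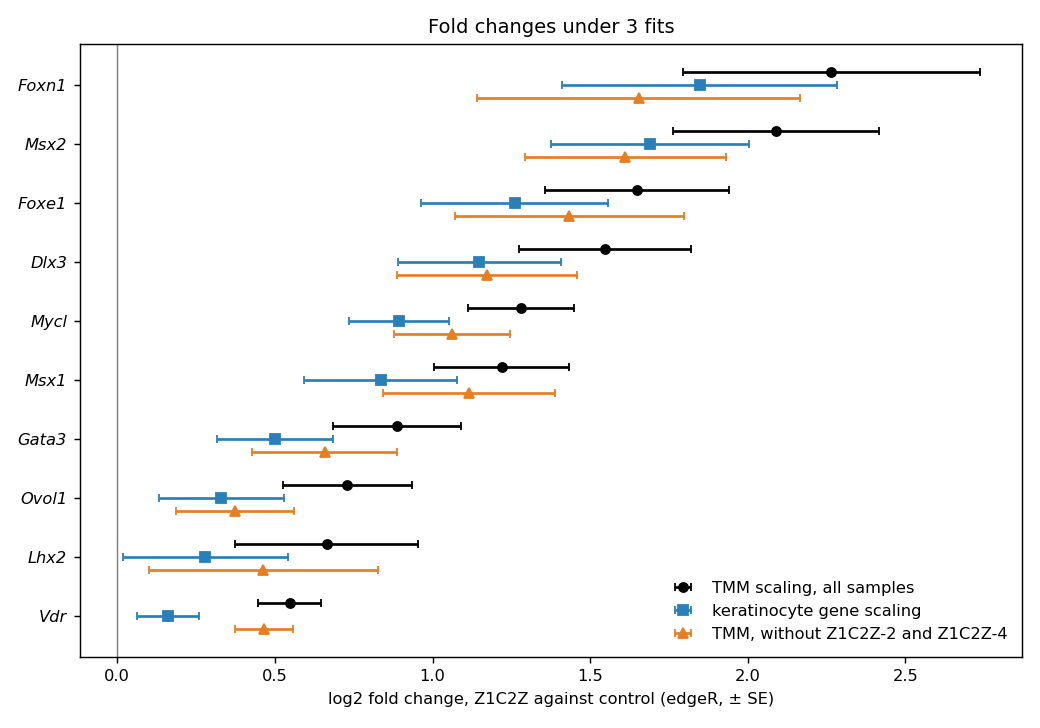
Log2 fold changes (Z1C2Z against control, edgeR, points with SE as bars) of the 10 genes with TMM scaling over all samples, with scaling by general keratinocyte genes, and with TMM but without Z1C2Z-2 and Z1C2Z-4. All points lie over 0, Foxn1 is highest and Vdr moves from 0.55 to 0.16 under the keratinocyte scaling.

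Whether the members rose by different amounts was examined in the log2 ratio of each pair within a sample, which library scaling does not change. Of 45 pairs, 13 had ratios that did not overlap between the groups. None had a Benjamini-Hochberg adjusted p under 0.05 in the exact two-sided permutation test, in which the smallest adjusted p was 0.0989. The 13 pairs were at the smallest unadjusted p that this test can give, 0.0286. The adjusted p depends on how many of the 45 pairs tie at this value, and no pair could pass without many more ties. The lack of calls therefore does not show that the members rose by equal amounts, and the test cannot decide this. Msx2 entered 6 of these 13 pairs. Its log2 ratio to Dlx3 was higher by 0.54 in the Z1C2Z samples, that to Mycl by 0.82, that to Gata3 by 1.18, that to Lhx2 by 1.34, that to Ovol1 by 1.37 and that to Vdr by 1.55. The other pairs without overlap were Vdr with Dlx3, Foxe1 and Mycl, Ovol1 with Dlx3, Foxn1 and Foxe1, and Lhx2 with Mycl. The share of pairs without overlap among other genes is not given here. The difference between Msx2 and Msx1 was 0.84 (1.67 in the control and 2.51 in the Z1C2Z samples, exact permutation p = 0.0571).

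Relatives and partners of the 10 genes were taken from a list of 29, of which 16 passed the filter. Dlx2, Dlx4 and Mycn were higher and 0 were lower with edgeR, with 3 lower at an unadjusted p under 0.05 and 5 called in either direction by DESeq2. The median log2 fold change of the 16 was 0.091. Dlx4, the gene next to Dlx3 on chromosome 11, had 1.03, 1.11, 1.98 and 0.986 CPM in the control and 4.79, 6.40, 5.98 and 2.27 CPM in the Z1C2Z samples, a log2 difference of 1.92 (SE 0.37, edgeR adjusted p = 0.0303). Dlx2, another distal-less factor, rose by 1.29 (SE 0.27, edgeR adjusted p = 0.0311) and Mycn, a second Myc family gene, by 1.13 (SE 0.28, edgeR adjusted p = 0.0437) on the log2 scale. The log2 fold change of Rxra, which had the highest mean CPM of the list and is the partner with which Vdr binds DNA, was 0.13 (SE 0.10, edgeR adjusted p = 0.420). It became -0.25 with keratinocyte scaling (edgeR adjusted p = 0.107), where the median of all genes was -0.37. Reads of close family members can be split by the counting, whose method is not given.

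Within-sample ratios set 8 members against a relative or partner. The log2 ratio of Mycl to Myc, the family member tied to proliferation, was -1.64 ± 0.484 in the control and 0.083 ± 0.298 in the Z1C2Z samples (SD, n = 4), without overlap. The difference of 1.72 gave an exact permutation p of 0.0286 and, over the 8 pairs, an adjusted p of 0.0571. Myc itself was at 61.4 ± 14.2 CPM in the control and 44.6 ± 8.59 CPM in the Z1C2Z samples (SD, n = 4, edgeR adjusted p = 0.143). Foxn1 to Foxn3 (difference 2.42), Gata3 to Gata6 (0.90) and Vdr to Rxra (0.41) were likewise without overlap, each with an exact permutation p of 0.0286 and an adjusted p of 0.0571. Without Z1C2Z-5 these 4 ratios and that of Msx2 to Msx1 had an adjusted p of 0.0457. The adjusted p here depends on how many pairs tie at the smallest possible exact p, so this is no stronger result. The ratios of Mycl to Mycn (0.10, exact permutation p = 0.657), Ovol1 to Ovol2 (0.35, p = 0.571) and Dlx3 to Dlx4 (-0.29, p = 0.171) overlapped between the groups, and the first and second of these differences were -0.045 and -0.045 without control-1.

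The genes beside the members on the chromosome were taken as the nearest tested gene on each side in the RefSeq order. Of these 20 neighbours edgeR called 1, Dlx4. The neighbours of Msx2 were Sptlc1 (log2 fold change 0.09, edgeR adjusted p = 0.615) and Sfxn1 (-0.22, edgeR adjusted p = 0.102), and those of Foxn1 were Unc119 (0.42, edgeR adjusted p = 0.156) and Slc46a1 (0.03, edgeR adjusted p = 0.918). These neighbours were chosen by position alone. Among the 1063 tested genes with a transcription factor family in the deposited table, 5.27% were higher and 3.86% lower, and in 12.2% all Z1C2Z samples lay above all control samples. A log2 fold change over 1 together with the adjusted p was reached by 22 of them (2.07%), of which 6 were Msx1, Msx2, Dlx3, Foxn1, Foxe1 and Mycl.

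Of 35 other regulators of hair follicle and keratinocyte fate, 13 were higher and 2 lower, with a median log2 fold change of 0.33. Hoxc13, the homeodomain factor that regulates hair keratin genes, had 12.3, 16.1, 23.8 and 8.53 CPM in the control and 55.1, 91.0, 82.2 and 33.7 CPM in the Z1C2Z samples (log2 fold change 2.11, SE 0.38, edgeR adjusted p = 0.0299). Lef1, the Wnt effector of the matrix, rose from 11.3 ± 4.18 to 37.6 ± 11.1 CPM (SD, n = 4, log2 fold change 1.74, edgeR adjusted p = 0.0299). Foxq1, a forkhead factor of the hair medulla, rose by 1.43 on the log2 scale (edgeR adjusted p = 0.0299). The log2 fold change of Klf4, a factor of the epidermal barrier with the highest mean CPM of the 35, was -0.21 (edgeR adjusted p = 0.270), and -0.60 with keratinocyte scaling (edgeR adjusted p = 0.0103). Under that scaling the median of all genes was -0.37 and 5768 genes were lower. The 2 that fell, named after their values were seen, were Runx1 (-0.79, edgeR adjusted p = 0.0356) and Nfatc1 (-0.71, edgeR adjusted p = 0.0362), factors of the follicle stem cells that blood and vessel cells also express.

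Among 25 ligands and receptors of follicle growth, 6 were higher and 1 lower with edgeR, with a median log2 fold change of 0.42, and DESeq2 called 14. Bmp4, a bone morphogenetic protein, rose from 7.29 ± 1.09 to 14.7 ± 3.22 CPM (SD, n = 4, log2 fold change 1.01, edgeR adjusted p = 0.0300). Notch1, a receptor of the inner layers, rose by 0.66 (edgeR adjusted p = 0.0280) on the log2 scale. Fgf5, the growth factor that ends the growth phase of the hair cycle, rose by 3.00 (edgeR adjusted p = 0.0299), and was below 1 CPM in each control sample. The 1 that fell, named after its values were seen, was Fgf7, the keratinocyte growth factor of fibroblasts (-1.35, edgeR adjusted p = 0.0337). The log2 fold change of Bmpr1a, a bone morphogenetic protein receptor with the highest mean CPM of this list, was 0.21 (edgeR adjusted p = 0.177).

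Genes of the follicle's products and cell types were counted in the same fit. Of 13 hair shaft keratin genes 11 were higher (median log2 fold change 4.31), with summed levels of 62.2 to 379 CPM in the control and 416 to 3836 CPM in the Z1C2Z samples. Krt35, an early keratin of the shaft, rose by 2.47 and Krt85 by 2.70 (edgeR adjusted p = 0.0306 and 0.0319) on the log2 scale. Of 9 root sheath genes 6 were higher (median 2.48), among them Krt28 (2.33, edgeR adjusted p = 0.0303) and Krt75 of the companion layer (1.87, edgeR adjusted p = 0.0300), with summed levels of 638 to 3831 CPM against 4667 to 15692 CPM. All 6 melanocyte genes were higher (median 1.60), such as Tyr at 1.76, the enzyme that begins melanin synthesis (edgeR adjusted p = 0.0300). Of 7 stem cell genes Lgr5 rose (0.76, edgeR adjusted p = 0.0337) and Cd34 fell (-0.34, edgeR adjusted p = 0.0487), with a median of 0.054. The stem cell list had 1 call in place of 2 both without a low-count filter and with at least 10 counts in every sample, and 4 calls with DESeq2. Of 8 dermal papilla genes Wif1 rose (0.56, edgeR adjusted p = 0.0341), with a median of 0.40, whereas Vcan was at -0.77 (edgeR adjusted p = 0.0751) and Crabp1 at -0.81 (edgeR adjusted p = 0.0695). At an unadjusted p under 0.05, 3 dermal papilla genes were higher and 2 lower, and DESeq2 called 4. Bulk samples do not show which cells express a gene, so a fall of Cd34 or Vcan cannot be assigned to stem cells or the papilla. None of these follicle and melanocyte lists had a gene at 0 in every sample. Keratins are a family of similar sequences, and the counting could have split their reads.

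Of 10 genes of the interfollicular epidermis edgeR called 1, Krt2, which rose from 0.272 ± 0.162 to 2.62 ± 1.95 CPM (SD, n = 4). The list median was 0.44, with 4 genes at an unadjusted p under 0.05 and 3 called by DESeq2, and Dsg1a was at 0.58 (edgeR adjusted p = 0.0513) without overlap. Of 6 sebaceous genes edgeR and DESeq2 each called 1, with edgeR calling Mc5r (1.05, edgeR adjusted p = 0.0378), with a median of 0.34. Of 10 cell division genes edgeR called 0 (median 0.19), with 3 at an unadjusted p under 0.05 and 1 called by DESeq2. Dendritic cell genes had a median of 0.11 and 0 of 7 called by edgeR, with 3 at an unadjusted p under 0.05 and 1 called by DESeq2. Log2 fold changes were under 0 for all 7 macrophage (median -0.37), 5 neutrophil (-1.19), 7 fibroblast (-0.57), 6 endothelial (-0.75) and 14 muscle genes (-0.60). Dcn and Lum of the fibroblast list and Acta1, Myh1 and Myh2 of the muscle list were lower with edgeR, whereas DESeq2 called 7 of the 7 fibroblast and 8 of the 14 muscle genes. EdgeR called 0 of the macrophage, neutrophil and endothelial genes, with 4, 3 and 3 at an unadjusted p under 0.05 and 0, 2 and 2 called by DESeq2. The median of 7 adipocyte genes was -0.47, with 0 called by edgeR, 4 at an unadjusted p under 0.05 and 2 called by DESeq2. The part of these cell types in the levels of the 10 genes was not tested.

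**Figure D4:**
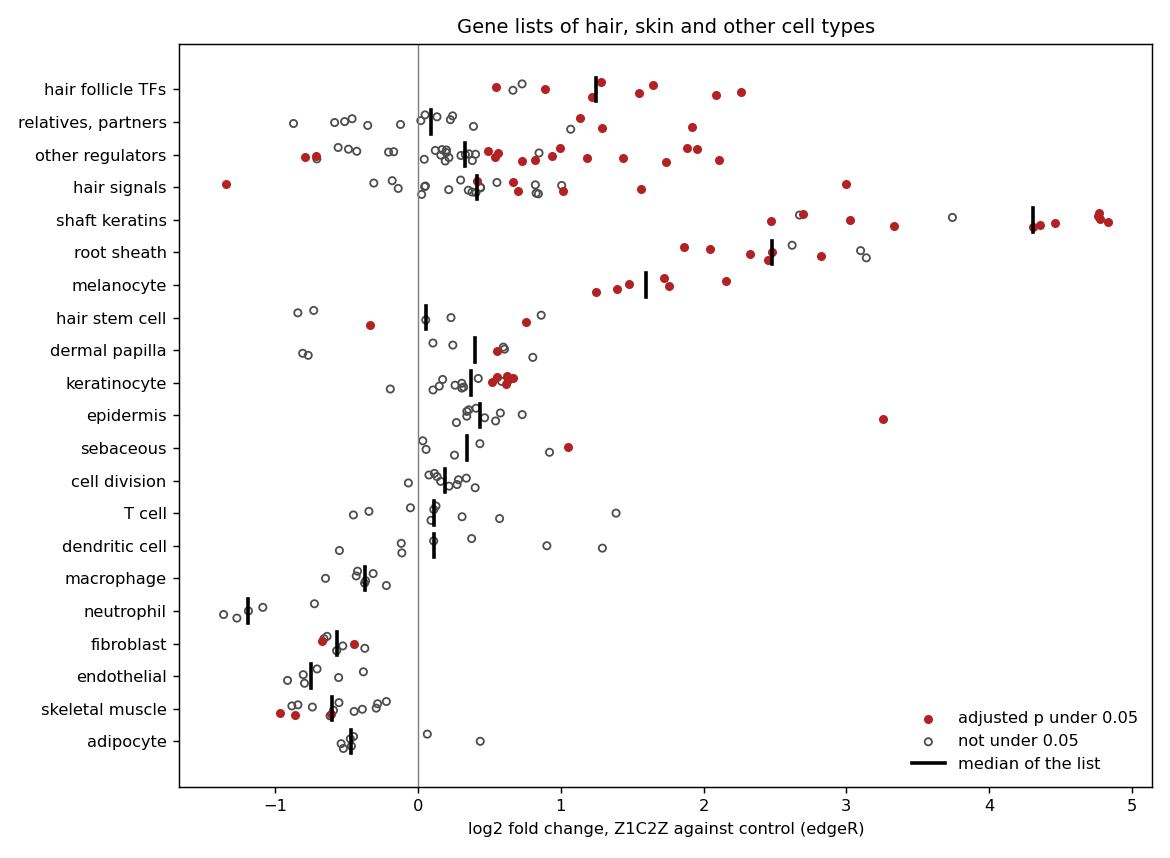
Log2 fold changes (Z1C2Z against control, edgeR) of the tested genes of each list, a point per gene, filled red at an adjusted p under 0.05 and open otherwise, with the median of the list as a black bar. The hair follicle transcription factors have a median of 1.25, the shaft keratins of 4.31 and the neutrophil genes of -1.19.

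Genes most like each member were sought by the Pearson correlation of log2 CPM over the 8 samples, which share the difference between the groups and the library, so the values are a description. Msx2 was most like Hoxc13 (r = 0.996) and Slc30a1, a zinc exporter (r = 0.996). Dlx3 was most like Slc24a5, an ion exchanger of melanosomes (r = 0.997), and Dnajc6 (r = 0.997). Foxn1 was most like Krt75 (r = 0.996) and Dclk3 (r = 0.996), and Gata3 most like Tuft1 (r = 0.996) and the tight junction gene Cldn1 (r = 0.995), which is among the general keratinocyte genes. Msx1 and Foxe1 shared Ggt1 as the most like gene (r = 0.976 and 0.991), followed by Wdsub1 (r = 0.973) for Msx1 and Zp2 (r = 0.990) for Foxe1. Ovol1 was most like Krtap5-3, a keratin associated protein gene (r = 0.992), and Snx11 (r = 0.991). Lhx2 was most like Zfp119a (r = 0.989) and Tdo2 (r = 0.987), Vdr like Slc37a1 (r = 0.985) and Eps8l2 (r = 0.981), and Mycl like Rars2 (r = 0.998) and Aagab (r = 0.991).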

How the data were processed

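RNA of wound skin from 4 control and 4 Z1C2Z samples was sequenced after depletion of ribosomal RNA, with dUTP in the second cDNA strand per the labels. RNA extraction is given as Trizol by the labels but as a TIANGEN kit in the methods. Values are raw read counts for each gene as the authors deposited them, not normalized, beside GO, KEGG and transcription factor family annotation. How reads were aligned and counted, with which build and strand setting, is not given in the sources used here. At 28856790 to 38974888 counts per sample, the smallest count of a member was 34, and counting error is largest for Foxe1 and Msx1.

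With edgeR 4.0.16 (R 4.3.3, limma 3.58.1), filterByExpr kept 15147 of 18540 genes. TMM scaling, the quasi-likelihood test without covariates and Benjamini-Hochberg adjustment were used, with calls at an adjusted p under 0.05. SE was derived from the F statistic. Log2 CPM used a prior count of 2. Single genes and ratios had exact two-sided permutation tests over 70 arrangements. The 45 member pairs were added after seeing the data. Exon lengths came from GENCODE M21 by symbol, and promoters and gene order from RefSeq. The edgeR fit was tested on simulated counts and the permutation test on made-up values. The other steps were not tested in this way.

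Besides the 10 members and the 8 ratio partners, the text names in each list up to 3 genes with the smallest p and the gene with the highest mean, the 2 genes most correlated with each member, neighbours by position, and genes said to be chosen after their values were seen. The members and lists were chosen with earlier results of these data known. Alternatives were DESeq2 1.42.0, RLE factors, keratinocyte gene scaling, 2 other filters, a replicate block, a muscle covariate, samples left out, a prior count of 0.5, an unadjusted p and an added fold threshold.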

Additional observations from a re-analysis of the deposited data

How the results depend on the processing

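All 10 hair follicle transcription factors had a log2 fold change over 0 in each of 16 alternative fits. These fits reuse the same 8 samples, and the share of all genes that kept their direction is not given here, so this is a description only. Their number called higher, 8, was 0 with the muscle covariate and 0 without Z1C2Z-2 and Z1C2Z-4 together, and lay between 0 and 9 when single samples were left out. It was 6 with keratinocyte scaling and 9 with DESeq2. Of all genes, 392 were higher and 5768 lower with keratinocyte scaling, 1206 and 1539 with DESeq2, and 0 and 0 with the muscle covariate and without Z1C2Z-2 and Z1C2Z-4 together, where 3141 and 1980 genes had an unadjusted p under 0.05. Leaving out single samples gave 0 to 886 higher and 0 to 868 lower genes. With the sample number as a replicate block, 301 genes were higher and 253 lower. Under it 7 members were called, with Gata3 (adjusted p = 0.121) and Vdr (adjusted p = 0.166) lost and Ovol1 (adjusted p = 0.0490) gained. Deviations of same-numbered samples correlated at -0.101, -0.0623 and 0.323 for numbers 1, 2 and 5, so the numbers were not taken to pair the samples. The direction reversed for Rxra (-0.25) with keratinocyte scaling, where the median of all genes was -0.37. Without control-1 it reversed for the log2 ratios of Mycl to Mycn (-0.045, range over single samples left out -0.045 to 0.20) and of Ovol1 to Ovol2 (-0.045, range -0.045 to 0.62). The causes were not tested. Genes under the low-count filter, such as Msx3 and Dlx6, could not be compared at this depth.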
